A study of Arabidopsis thaliana with 4 samples.

Results

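The chloroplast genome of Arabidopsis thaliana keeps a small set of genes for the machinery of photosynthesis, and 38 of them are described here: every plastid gene with a symbol starting psa, psb, pet or ndh, and rbcL. They were found through the array's platform annotation and a gene table of the TAIR10.1 assembly, each by 1 probe set, among 22746 probe sets that are not controls. All 38 such symbols of the plastid genome had a probe set. By complex they are 5 genes of photosystem I, 15 of photosystem II, 6 of cytochrome b6f, 11 of the NDH complex and the gene of the Rubisco large subunit. The probe set for ndhB matches both copies of that gene in the inverted repeat (loci ArthCp068 and ArthCp086), which cannot be told apart.

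The samples were 4 Affymetrix ATH1 arrays of whole seedlings in the Col-0 background, 2 for each genotype. The wild type is labelled FRI and FLC, and the labels give flc-3 as a gene knockout of At5g10140, which encodes the floral repressor FLC. Titles spell the mutant's FRI in lower case, so the labels do not settle its FRI allele. Seedlings of both genotypes, at growth stage 1.02 on agar with 3% sucrose, had 6 days of constant light and 4 days of cycles with 12 h light and 12 h dark at 22 °C. They then went to constant light at 27 °C. The light level was 55 to 60 µmol in the first 6 days, 75 µmol in the cycles and 25 µmol after that transfer. Equal amounts of RNA from 24, 30, 36 and 42 h after the transfer were pooled for each array. A value is thus a mean over a day and holds no rhythm. The labels name 1 mutant allele, and nothing in them says that the arrays of a genotype came from separate cultures. The p-values therefore cover only how far these arrays spread, and that spread may be technical.

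Photosystem II splits water and passes electrons through cytochrome b6f to photosystem I, and the NDH complex returns electrons from the photosystem I side to the carrier pool. The core subunits of these complexes are encoded in the plastid, while antenna proteins, many peripheral subunits and the sigma factors that guide plastid transcription are encoded in the nucleus. Plastid genes are transcribed by a bacterial-type polymerase and by phage-type polymerases, mostly as units of several genes. Their long transcripts are then cut, spliced, trimmed and edited, so the amount of each RNA depends much on processing and decay. Plastid messages carry no stable poly(A) tail. A tail there marks an RNA for decay, in contrast to nuclear messages. The sources used here do not give the primer of the labelling reaction, and its part in these values was not tested.

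Signals are MAS5 intensities on a linear scale, as deposited. The median signal of an array was 47.1 to 48.5. The antenna genes LHCB4.1, LHCB4.2 and LHCB4.3, which mark green tissue, lay between 2589 and 3215, between 1891 and 2439 and between 102 and 117. Of 3 root markers PYK10 was bright, between 2723 and 3780, and the root hair expansins EXPA7 and EXPA18 were near the array median, between 30.7 and 57.9 and between 52.2 and 76.5. Both expansins were higher on both flc-3 arrays, with log2 differences of 0.69 (limma adjusted p = 0.115) and 0.34 (adjusted p = 0.43), while PYK10 had -0.09, or 0.04 with quantile normalization. The part of root tissue in the plastid values was not tested. The annotation used here pairs no probe set with the symbol or locus of the targeted gene, so the labels were not checked by it here. In bulk RNA, fewer plastids or green cells and less RNA in each cannot be told apart. Brightness also depends on the probes, so genes are not ranked against each other by signal.

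None of the plastid photosynthesis genes passed the test between flc-3 and the wild type, and in most of them the arrays of 1 genotype lay farther apart than the genotypes did. Of the 37 genes with enough signal to be tested, 0 passed an adjusted p of 0.05 in limma, where 1.69% of all 13648 tested probe sets passed. At an unadjusted p under 0.05 there were 3 genes, psbT, psbK and psbC, all of photosystem II, where 12.1% of all tested probe sets lay under it. The median log2 difference, flc-3 minus wild type, was 0.00 over the 38 genes, with 18 above 0, and -0.01 over all tested probe sets. In 35 of the 38 genes the 2 arrays of at least 1 genotype lay farther apart than the genotype means, which held for 69.9% of all tested probe sets. In 4 genes the arrays of the genotypes did not overlap, against 43% of all tested probe sets. In 2 of them, psbT and ndhA, both flc-3 arrays were the higher ones (20.1% of all tested probe sets), and in the other 2, petN and petD, the lower ones (22.8%).

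**Figure D1:**
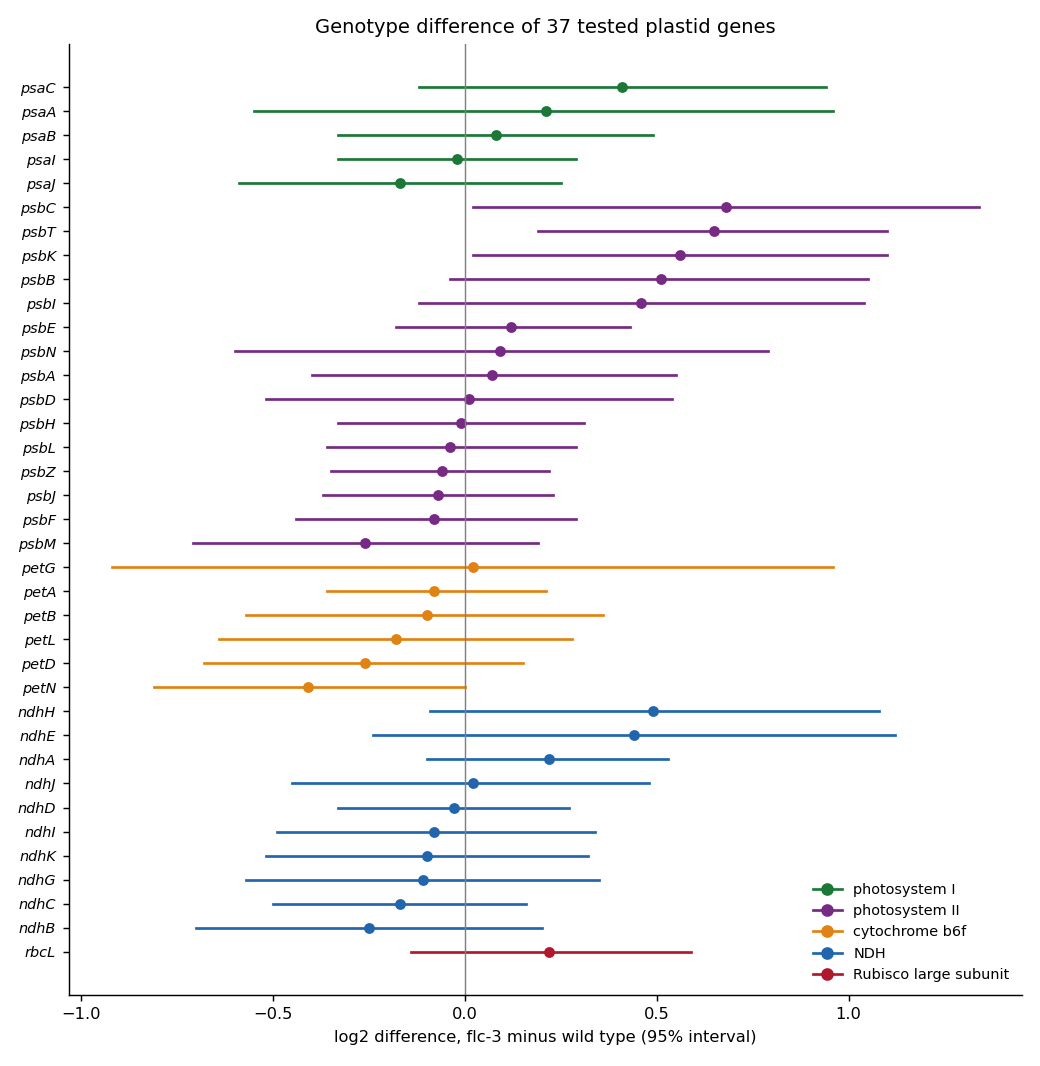
The log2 difference between flc-3 and the wild type (horizontal axis, flc-3 minus wild type) is drawn for each of the 37 tested genes, coloured by complex. Points are differences of genotype means (2 arrays each) and lines are 95% intervals from limma, of which those of psbC, psbT and psbK lie above 0 before adjustment, and the points run from -0.41 for petN to 0.68 for psbC.

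Photosystem I has its 2 large chlorophyll-binding core proteins, PsaA and PsaB, its iron-sulfur subunit PsaC and the small subunits PsaI and PsaJ encoded in the plastid. The signal of psaA was 391 and 937 in the wild type against 868 and 564 in flc-3. The wild-type arrays held both the lowest and the highest of the 4 values, and the genotypes overlapped throughout. The log2 difference between genotypes was 0.21 ± 0.34 (SE, limma adjusted p = 0.861), while wild type replicate 1 lay 1.26 below replicate 2 on the log2 scale. The partner gene psaB, read in the same unit, was also lowest in wild type replicate 1 but varied less, with 1752 and 2132 in the wild type against 2278 and 1835 in flc-3. For psaC the signal was 231 and 428 in the wild type against 470 and 372 in flc-3, and wild type replicate 1 again stood lowest. Its difference of 0.41 ± 0.24 (limma adjusted p = 0.534) was the highest of the complex. The lowest was that of psaJ, at -0.17, with 1522 and 1460 in the wild type against 1092 and 1606 in flc-3, where only flc-3 replicate 1 stood apart, below the others. The gene psaI, with a difference of -0.02, ran from 650 to 829 over the 4 arrays.

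Photosystem II held the highest differences between the genotypes among these 38 genes. Its reaction centre proteins are D1 and D2, encoded by psbA and psbD, and its inner antenna proteins CP47 and CP43 are encoded by psbB and psbC. The signal of psbC was 133 and 196 in the wild type against 377 and 178 in flc-3. Only flc-3 replicate 1 was high, and flc-3 replicate 2 lay between the wild-type arrays. The log2 difference of psbC was 0.68 ± 0.29 (SE, limma adjusted p = 0.397, 95% interval 0.02 to 1.34). The overlap was of the same kind in psbB, with 112 and 180 in the wild type against 257 and 158 in flc-3 and a difference of 0.51 ± 0.24. The gene psbT, for a small subunit at the dimer interface, was the 1 gene of the complex whose genotypes did not overlap. Signals were 82.2 and 125 in the wild type against 186 and 136 in flc-3, with a difference of 0.65 ± 0.20 (limma adjusted p = 0.216).

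The core genes psbA and psbD showed a wide spread and no shift. The signal of psbA was 894 and 1145 in the wild type against 1341 and 847 in flc-3, so both the highest and the lowest array were flc-3, and the log2 difference was 0.07 ± 0.21. That of psbD was 166 and 209 in the wild type against 256 and 138 in flc-3, with the same order of arrays and a difference of 0.01 ± 0.24. D1 is the protein that light damages and that the plastid replaces fastest. The intervals of these differences, -0.40 to 0.55 for psbA and -0.52 to 0.54 for psbD, leave room for changes of either sign.

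The small subunits of photosystem II fell into those whose signal varied strongly and those whose signal varied little. In psbK the signal was 200 and 270 in the wild type against 464 and 255 in flc-3, and in its neighbour psbI it was 248 and 395 against 572 and 326. In both genes flc-3 replicate 1 stood above the other 3 arrays and wild type replicate 1 below them. The log2 differences were 0.56 ± 0.24 (limma adjusted p = 0.386) for psbK and 0.46 ± 0.26 (limma adjusted p = 0.523) for psbI. The gene psbN, which is read from the strand opposite to psbT and psbH and in tobacco acts in assembly rather than as a subunit, had 56.9 and 107 against 112 and 62, and a difference of 0.09. By contrast, psbH, whose protein is a phosphorylated subunit of the core, stayed between 1312 and 1458 on all 4 arrays. The cytochrome b559 genes psbE and psbF had differences of 0.12 and -0.08, with signals of 999 to 1230 and of 1600 to 1962. For psbJ it was -0.07, for psbL -0.04 and for psbZ -0.06, with signals of 1094 to 1251, of 447 to 612 and of 554 to 686. The lowest of the complex was psbM, at -0.26 ± 0.20, with 2911 and 2473 in the wild type against 1933 and 2597 in flc-3, where flc-3 replicate 1 was the lowest array.

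Of the 6 cytochrome b6f genes 5 had differences below 0, as had 52.5% of all tested probe sets, and none passed. With 1 array left out, petD and petN stayed below 0 in each fit, while petA, petB and petL turned above 0 in at least 1. Cytochrome f is encoded by petA, cytochrome b6 by petB and subunit IV by petD, and petG, petL and petN encode very small subunits. The signal of petN was 56.1 and 65.9 in the wild type against 39.7 and 52.3 in flc-3. Both flc-3 arrays lay below both wild-type arrays, and the log2 difference was -0.41 ± 0.18 (limma adjusted p = 0.415), the lowest of all 38 genes. The other gene without overlap was petD, with 34.5 and 39.8 against 33.4 and 28.2 and a difference of -0.26, though these signals lie close to the level of 30.8 below which probe sets were not tested. The largest gap between replicates among all 38 genes was that of petG, with 22.9 and 66.6 in the wild type against 52.4 and 30 in flc-3. The wild-type arrays of petG differed by 1.50 on the log2 scale and the genotypes by 0.02 ± 0.42. The signal of petL was 198 and 291 against 259 and 174, a difference of -0.18. The bright genes petA and petB had differences of -0.08 and -0.10, with signals of 917 to 1050 and of 2441 to 3250.

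The NDH complex, a relative of respiratory complex I, runs cyclic electron flow and has its membrane arm and part of its connecting arm encoded in the plastid. Of its 11 genes 10 were tested, and ndhF was too dim, with signals of 15.2 to 30. The highest difference was that of ndhH, a subunit of the connecting arm, with 60.1 and 103 in the wild type against 140 and 88.4 in flc-3. Its arrays overlapped, and the log2 difference was 0.49 ± 0.26 (limma adjusted p = 0.498). For ndhE, a membrane subunit, the signal was 139 and 315 in the wild type against 337 and 241 in flc-3. Wild type replicate 1 stood far below the other 3 arrays, and the gap of 1.17 between the wild-type arrays exceeded the genotype difference of 0.44 ± 0.30. The 1 NDH gene without overlap was ndhA, with 872 and 1047 in the wild type against 1053 and 1169 in flc-3, a difference of 0.22 ± 0.14 (limma adjusted p = 0.588). The lowest difference was that of ndhB, at -0.25, with 41.3 and 55.9 against 45.4 and 35.6. The 6 other tested genes lay between -0.17 (ndhC) and 0.02 (ndhJ). Among them ndhG ran from 74.1 to 114, ndhK from 91.8 to 135 and ndhJ from 143 to 225, and in each the 2 lowest arrays were wild type replicate 1 and flc-3 replicate 2. The brighter ndhC, ndhD and ndhI ran from 973 to 1256, from 1108 to 1270 and from 1919 to 2473.

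The Rubisco large subunit gene rbcL, which encodes the catalytic chain of the enzyme that fixes carbon dioxide, had a signal of 230 and 270 in the wild type against 348 and 242 in flc-3. As in psbC and psbB, flc-3 replicate 1 was high and flc-3 replicate 2 lay among the wild-type arrays. The log2 difference was 0.22 ± 0.16 (SE, limma adjusted p = 0.648, 95% interval -0.14 to 0.59).

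The intervals set what these arrays can show. For 30 of the 37 tested genes the 95% interval lay within -1 and 1 on the log2 scale. For the other 7, psbC, psbT, psbK, psbB, psbI, ndhH and ndhE, it reached past 1, so a doubling in flc-3 lies within the interval. Leaving out 1 array moved several of these. Without wild type replicate 2, where 2.12% of all tested probe sets passed, psaC (0.85, limma adjusted p = 0.0166), ndhE (1.03, adjusted p = 0.0172) and psbT (0.94, adjusted p = 0.0298) passed. Without flc-3 replicate 2, where 1.22% of all passed, psbC (1.22, adjusted p = 0.00598) and psbK (1.00, adjusted p = 0.0133) passed. Without wild type replicate 1 or flc-3 replicate 1, 0 of the 37 genes passed in limma, where 2.67% and 1.08% of all tested probe sets passed. At an unadjusted p under 0.05 there were 10 genes without wild type replicate 2 (17.8% of all tested probe sets) and 15 without flc-3 replicate 2 (7.42%). There were 3 without wild type replicate 1 (14.9%) and 2 without flc-3 replicate 1 (7.09%). In these fits the lone array of a genotype is assumed to vary like the others.

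The plastid genes differed between arrays of 1 genotype in a shared pattern. Wild type replicate 2 was above replicate 1 in 31 of 38 genes, with a median log2 difference of -0.34, replicate 1 minus replicate 2. In flc-3 it was replicate 1 that was above replicate 2, in 24 of 38 genes and with a median of 0.32. All 24 were also among the 31, so that 63.2% of the genes were high in wild type replicate 2 and flc-3 replicate 1, against 25.4% of all tested probe sets. Over all tested probe sets both medians were near 0, at -0.01 in the wild type and 0.01 in flc-3. The highest of the 4 arrays was wild type replicate 2 in 14 genes and flc-3 replicate 1 in another 14, or 36.8% each, against 27.4% and 24.7% of all tested probe sets. The lowest was wild type replicate 1 in 19 genes (50%, against 27.7% of all), flc-3 replicate 1 in 11 (28.9%, against 23.4%) and wild type replicate 2 in 0 (against 23.6%).

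**Figure D2:**
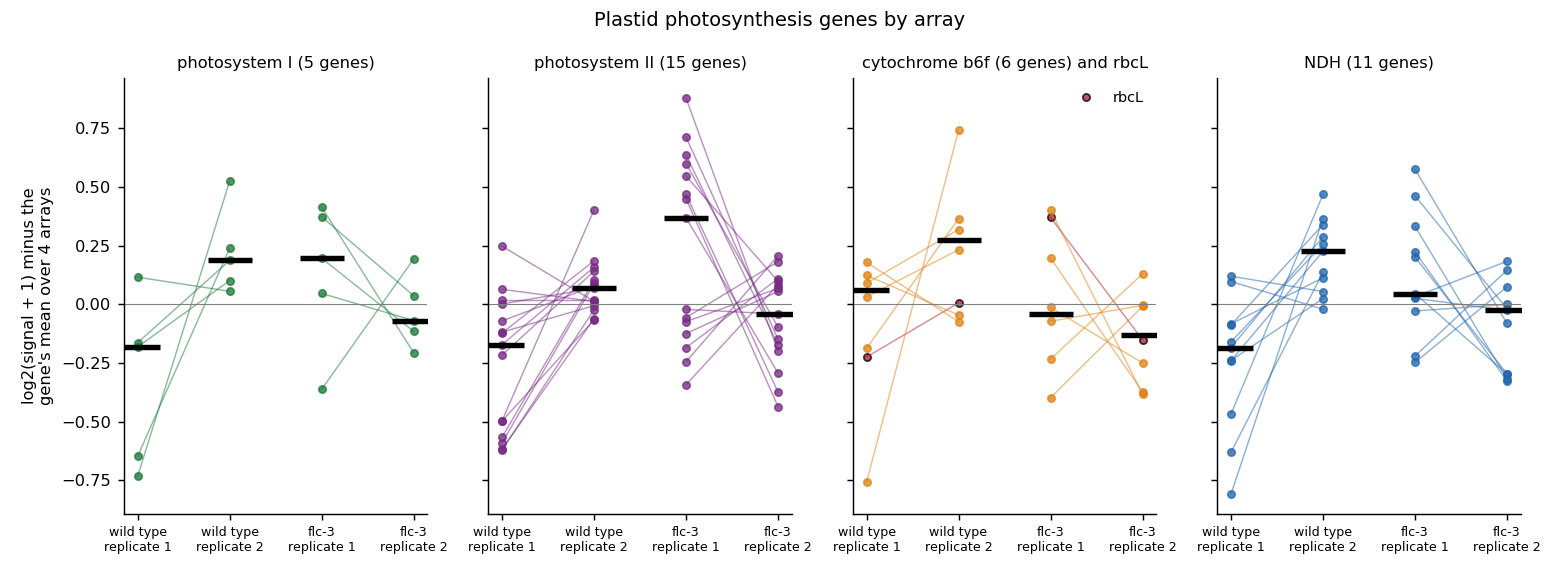
Each point is 1 gene on 1 array, as log2(signal + 1) minus that gene's mean over the 4 arrays (vertical axis), in a panel for each complex, with lines joining the 2 arrays of a genotype and black bars for the median of the complex. Wild type replicate 1 has medians below 0 in photosystem I, photosystem II and NDH, and in photosystem II flc-3 replicate 1 has genes spread from -0.34 to 0.88.

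In the 4 complexes the medians of the gaps had the same signs, and only that of cytochrome b6f in flc-3 was near 0. The median for the wild type, replicate 1 minus replicate 2, was -0.35 in photosystem I, -0.33 in photosystem II, -0.22 in cytochrome b6f and -0.43 in NDH. For flc-3 it was 0.31, 0.45, 0.08 and 0.34 in the same order. A gap of at least 1 on the log2 scale between arrays of 1 genotype was found in 4 of 38 genes (psaA, psbC, petG and ndhE), or 10.5%, against 0.381% of all tested probe sets. The residual SD lay above the 90th percentile of all tested probe sets, 0.26 on the log2 scale, in 20 of 37 genes.

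Across the 38 genes the gap in the wild type and the gap in flc-3, which share no array, ran against each other, with Pearson's r = -0.70 and Spearman's rho = -0.78. Over all tested probe sets these were 0.09 and 0.09. The genes share the same 4 arrays and many share a transcript, so this is a description of these arrays. Genes toward one end included petG, psaA, psbN, ndhE, psbC and psbB. At the other end stood psbM, petB, ndhI and psaJ, in which wild type replicate 1 was above replicate 2 and flc-3 replicate 1 below replicate 2. Of the 38 genes 7 had that opposite pattern, or 18.4%, against 21.6% of all tested probe sets.

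**Figure D3:**
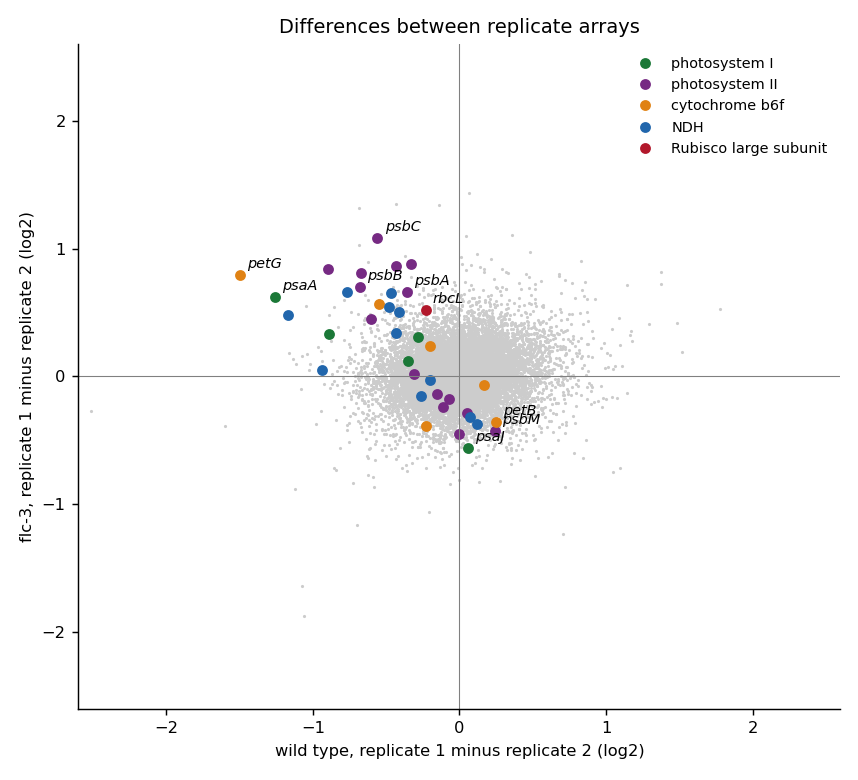
For each of the 38 genes the log2 difference between replicates 1 and 2 in the wild type (horizontal axis) is set against that in flc-3 (vertical axis), coloured by complex, with all tested probe sets in grey. The upper left part, low in wild type replicate 1 and high in flc-3 replicate 1, holds 24 of the 38 genes.

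The pattern followed the brightness of the probe set. The 19 dimmer genes, with mean signals of 21.4 to 363, had median gaps of -0.55 in the wild type and 0.54 in flc-3, and 18 of them were high in both wild type replicate 2 and flc-3 replicate 1. The 19 brighter genes, with mean signals of 368 to 2872, had medians of -0.11 and -0.15, and 6 of them showed that pattern. Over the 38 genes, mean log2 signal and the gap had r = 0.62 (rho = 0.69) in the wild type and r = -0.54 (rho = -0.56) in flc-3. Over all tested probe sets r was 0.02 and -0.21. The brightness of a probe set and the genotype difference had r = -0.10 over the 38 genes.

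**Figure D4:**
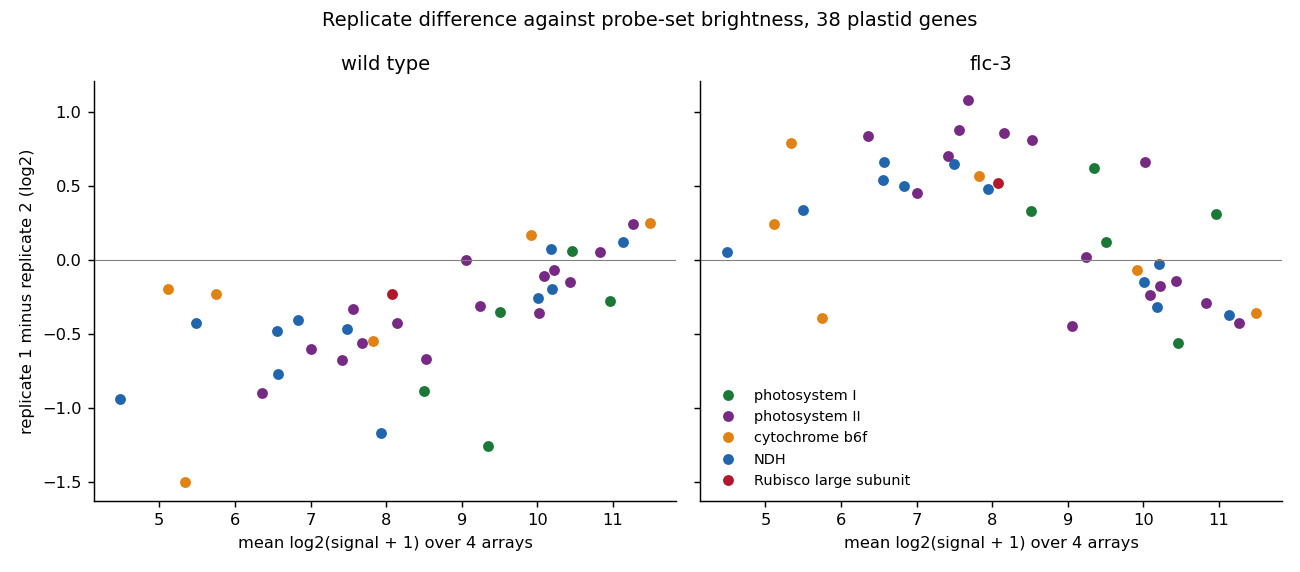
The log2 difference between replicates 1 and 2 (vertical axis) is drawn against the mean log2(signal + 1) over the 4 arrays (horizontal axis) for each of the 38 genes, in the wild type on the left and in flc-3 on the right. Points near the left of each panel lie below 0 in the wild type and mostly above 0 in flc-3. Points at the right are mixed, with 6 of the 19 brighter genes above 0 in flc-3, among them psaA (-1.26 in the wild type and 0.62 in flc-3), psbA (-0.36 and 0.66) and psaB (-0.28 and 0.31).

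Genes that are read as 1 unit did not always share a pattern. In the unit psbB-psbT-psbH-petB-petD, psbB and psbT were lowest in wild type replicate 1 and highest in flc-3 replicate 1, while psbH differed by 0.15 and 0.14 between the arrays of a genotype. In petB, at the far side of psbH, the order was turned, with 3250 and 2728 in the wild type against 2441 and 3141 in flc-3. The dim petD, last in the unit, had gaps of -0.20 in the wild type and 0.24 in flc-3, with the signs of psbB and psbT. The genotype differences in this unit ran from -0.26 for petD to 0.65 for psbT. In psbD-psbC-psbZ the gap in flc-3 was 0.88 for psbD and 1.08 for psbC, whose coding regions overlap, and 0.02 for psbZ, the last of the 3. In petL-petG-psaJ the 2 cytochrome genes were high in wild type replicate 2 and flc-3 replicate 1, and psaJ, which follows them, was not.

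In other units some or all of the genes stayed together. In psbE-psbF-psbL-psbJ, which encodes cytochrome b559 and 2 small subunits, all 4 genes were lower in flc-3 replicate 1 than in replicate 2, by 0.18 to 0.45. Their genotype differences lay between -0.08 and 0.12. The neighbours psbK and psbI had gaps of -0.43 and -0.67 in the wild type and of 0.86 and 0.81 in flc-3. In the long NDH unit that also holds psaC, 4 of 7 genes, psaC, ndhE, ndhG and ndhH, were high in wild type replicate 2 and flc-3 replicate 1. The remaining 3, ndhD, ndhI and ndhA, were the brightest of the unit and had gaps of at most 0.37. The unit ndhC-ndhK-ndhJ was also mixed: ndhK and ndhJ had gaps of -0.41 and -0.47 in the wild type and of 0.50 and 0.65 in flc-3, whereas the bright ndhC had 0.07 and -0.32.

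**Figure D5:**
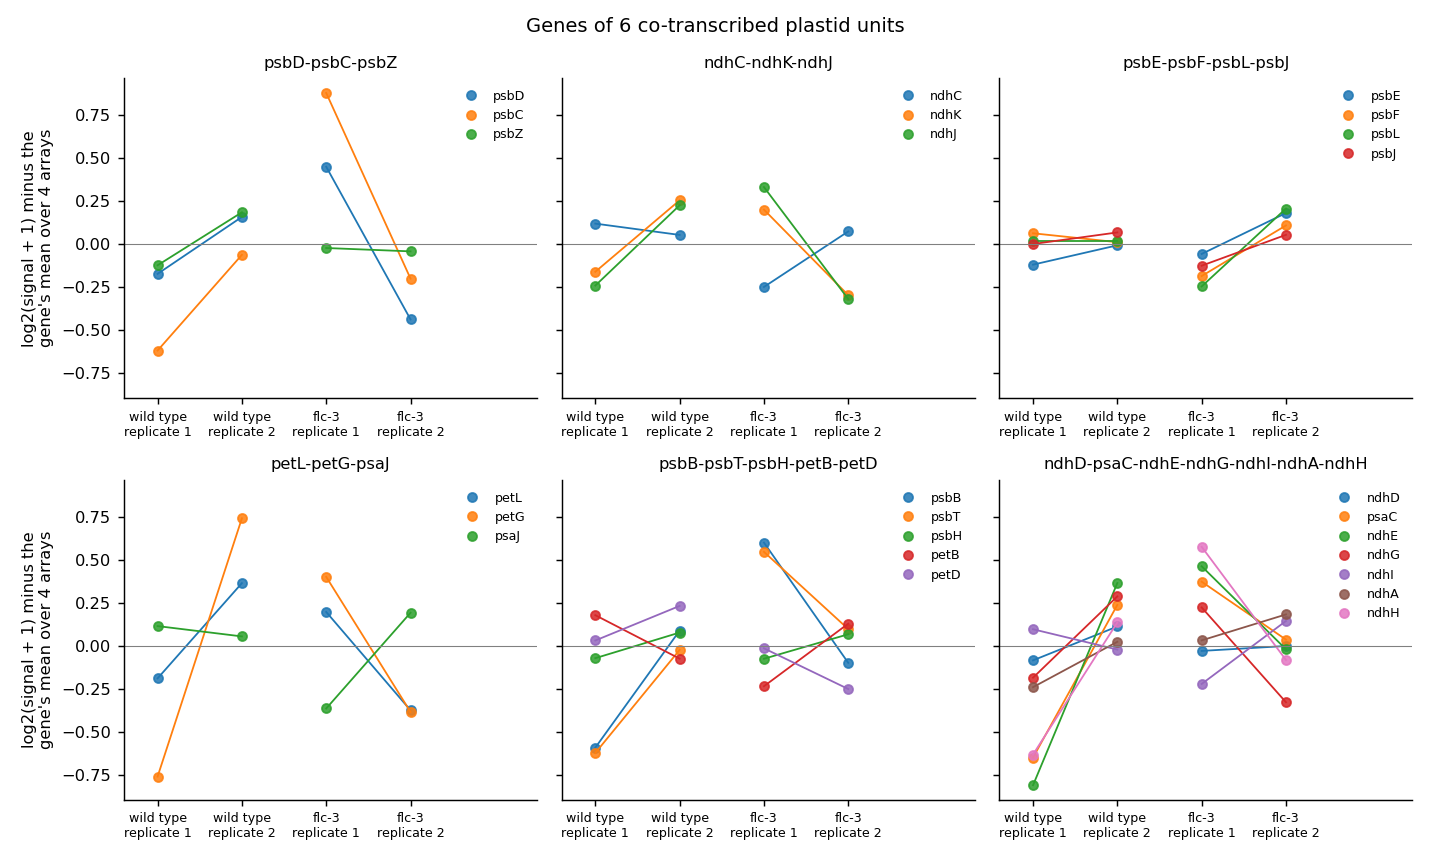
Each panel is 1 of the 6 co-transcribed units with at least 3 genes described here, and each colour is 1 gene, as log2(signal + 1) minus its mean over the 4 arrays (vertical axis), with lines joining the arrays of a genotype. In psbB-psbT-psbH-petB-petD, psbB and psbT stand above 0.5 in flc-3 replicate 1 while psbH and petB stand below 0, and in psbE-psbF-psbL-psbJ the 4 genes stay together.

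Plastid genes with other functions had gaps of the same signs. Of 33 other plastid probe sets, for ribosomal proteins, RNA polymerase and further functions, 69.7% were high in wild type replicate 2 and flc-3 replicate 1, with median gaps of -0.41 and 0.27. Their median genotype difference was 0.24, and 24.2% were below 0, against 52.5% of all tested probe sets. Of 30 tested 1 passed, rpl36 (0.80 ± 0.15, limma adjusted p = 0.0282), and whether it keeps this call in the other fits is not given here. In 9 of the 33 both flc-3 arrays were the higher ones and in 0 the lower ones, against 20.1% and 22.8% of all tested probe sets. The 6 ATP synthase genes had median gaps of -0.43 and 0.50. There atpA (1.24 ± 0.19, limma adjusted p = 0.00816) and atpF (1.21 ± 0.19, adjusted p = 0.00843) rose in flc-3, with atpA at 512 and 720 in the wild type against 1658 and 1240 in flc-3. In atpA both flc-3 arrays lay above both wild-type arrays, as they did in 2 of the 38 photosynthesis genes. With no filter on dim probe sets atpA and atpF lost their call (limma adjusted p = 0.0901 and 0.0981). Without wild type replicate 1 atpA also lost it, at 0.99. The difference between these groups of genes was not tested. Of 18 mitochondrial probe sets 33.3% showed the pattern, with median gaps of -0.04 and 0.16, and most were dim.

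The 14 nuclear partners with a named probe set had smaller median gaps between replicates than the 38 plastid genes together. None of the 13 tested passed the test between genotypes. The lists held 107 nuclear genes for photosystems, cytochrome b6f and carriers, NDH, Rubisco, antennae, plastid transcription and plastid RNA handling. Of these 14 had a named probe set and 13 were tested. Genes were matched only through probe sets that the annotation used here pairs with 1 gene, so others may still be on the array. In limma 0 passed in either direction, and 2 had an unadjusted p under 0.05. Their median gaps were -0.06 in the wild type and -0.11 in flc-3. Those of all 38 plastid genes were -0.34 and 0.32, but those of the 19 brighter ones were -0.11 and -0.15. The part of brightness in this was not tested. All 14 genotype differences were below 0, as were 52.5% of all tested probe sets, and their median was -0.18. PSBW turned to 0.05 with quantile normalization and 0.06 with cyclic loess. With quantile normalization RCA (-0.05), LHCB4.1 (-0.06), LHCB4.2 (-0.12), PSAN (-0.12), PSBY (-0.14), PETM (-0.23) and PSAE1 (-0.25) stayed below 0 but closer to it. The dimmer NDHL (-0.34), NDHN (-0.36), NDHS (-0.16), LHCB4.3 (-0.11) and CRP1 (-0.13) hardly moved. The lowest array was flc-3 replicate 1 in 10 of the 14 (71.4%, against 23.4% of all tested probe sets) and flc-3 replicate 2 in 4 (28.6%, against 25.3%). Without flc-3 replicate 1, PSAN (0.03), PSBW (0.20) and RCA (0.07) turned above 0, and the other tested genes stayed below 0. In 9 of the 14 both flc-3 arrays lay below both wild-type arrays, against 22.8% of all tested probe sets: NDHL, NDHN, NDHS, PSAE1, PSBY, PETM, LHCB4.2, LHCB4.3 and CRP1. For NDHL, a membrane subunit, the signal was 369 and 431 in the wild type against 316 and 314 in flc-3 (-0.34 ± 0.11, limma adjusted p = 0.241). NDHN had -0.35 (adjusted p = 0.268) and NDHS -0.16 (adjusted p = 0.569). In photosystem I, PSAE1, of the ferredoxin docking side, had -0.33 (adjusted p = 0.523) and PSAN -0.15. In photosystem II, PSBY had -0.23 and PSBW -0.01, and PETM of cytochrome b6f had -0.28 (adjusted p = 0.563). Rubisco activase, RCA, had -0.15, the antenna genes LHCB4.2, LHCB4.1 and LHCB4.3 had -0.20, -0.15 and -0.10, and CRP1, a plastid RNA factor, had -0.12. The phage-type polymerase gene RPOTmp was too dim to test.

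Control probe sets also differed between arrays. That of 25S ribosomal RNA read 135 and 47.6 in the wild type against 1426 and 45.7 in flc-3, so it was high in flc-3 replicate 1 but low in wild type replicate 2. That of 5S ribosomal RNA read 43.3 and 82.8 in the wild type against 54.6 and 42.6 in flc-3, with its 2 highest values on the 2 arrays where the dimmer plastid genes were high. The ratio of the 3′ to the 5′ probe set was 3.76 and 4.44 in the wild type against 4.23 and 4.52 in flc-3 for actin. It was 1.18 and 1.1 against 1.02 and 1.06 for GAPDH, and for ubiquitin 2.12 and 2.17 against 2.04 and 2. The part of these in the plastid values was not tested.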

How the data were processed

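The members and lists were chosen with earlier results of these data known. The authors deposited MAS5 signal intensities, linear in scale, per the submitters' processing notes (version not given in the sources used here). All 4 arrays had a trimmed mean (2% from each end) of 100.01, and no further scaling was applied. Detection calls were not used here. Of 22810 probe sets, 64 controls were left out. Values were taken as log2(value + 1), which understates differences of dim probe sets. Probe sets below the 40th percentile of mean log2 signal were left out, leaving 13648. The genotypes were compared with limma 3.58.1 in R 4.3.3 (lmFit and eBayes, trend on, residual df 2, prior df 7.66), 2-sided, in a model with genotype alone, and p-values were adjusted by Benjamini-Hochberg over all tested probe sets. Standard errors and intervals are moderated by limma. Gaps between replicates and medians are descriptions with no test. Array number limits the precision. Named genes: all 38 plastid genes, and in each nuclear list those that passed and the 3 smallest p. The genes atpA, atpF, atpH and rpl36 and the split at 19 dimmer and 19 brighter genes were chosen after values were seen. Transcription units follow textbook gene order. The limma step was tested on simulated data with the spread of all tested probe sets and 200 of 13648 changed. It recovered 48.2% of 2-fold and 86.4% of 4-fold changes, and 1.65% of its calls were false. Of the 37 tested plastid genes 20 had a residual SD above the 90th percentile of all tested probe sets, so these rates need not hold for them. Same-numbered replicates have a correlation of gaps of 0.09 over all tested probe sets, and the labels give them no shared source. Alternatives were quantile and cyclic loess normalization, pseudocounts of 16 and 0.1, no filter and the 60th percentile, robust eBayes and eBayes with no trend, a block for the replicate number, and each array left out. No coordinates are given, since the values carry no build.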

Additional observations from a re-analysis of the deposited data

Results flagged for a closer look

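A signal outside the comparisons stood out on 1 array: the 25S ribosomal RNA control was at 1426 in flc-3 replicate 1, above the 135 and 47.6 of the wild-type arrays and the 45.7 of flc-3 replicate 2. Of the 38 plastid photosynthesis genes 24 were higher in flc-3 replicate 1 and in wild type replicate 2 than on the other array of the genotype, and the 25S signal was high in only the first of these. Its part in the plastid values was not tested.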

How the results depend on the processing

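The count of plastid photosynthesis genes past the threshold was 0 under both other normalizations, both pseudocounts, both filters and both other variance models, and 0 to 3 with 1 array left out. The median genotype difference lay between -0.12 and 0.16 with 1 array left out. Under both other normalizations, both pseudocounts and the 60th percentile filter it lay between -0.02 and 0.02. With no filter, the other variance models and the replicate block, each gene's difference is that of the main fit, so the median stays 0.00. The count over all tested probe sets, 230, was 121 with no filter, 149 with a filter at the 60th percentile and 147 to 364 with 1 array left out. With the replicate number as a block it was 769, or 5.63%, and 8 plastid genes passed (psbC, psbT, psbK, psbB, psbI, psaC, ndhE and ndhH), as did NDHL (limma adjusted p = 0.0429), NDHN (0.0291) and EXPA7 (0.00683). That fit has residual df 1 and takes the spread of every probe set wholly from the trend, so a gene's own gap between arrays does not enter, and the samples share only a number. Median gaps between replicates kept their sign under both other normalizations and both pseudocounts, at -0.32 to -0.34 in the wild type and 0.28 to 0.33 in flc-3. A filter changes only which genes enter, so the gaps with no filter repeat the main ones. The 33 genes left by the 60th percentile filter had -0.33 and 0.33. Of 37 genes, 13 kept the sign of their genotype difference with each array left out and 24 did not. Among the 24, the differences ranged in photosystem I from -0.42 to 0.84 for psaA, -0.07 to 0.24 for psaB, -0.03 to 0.85 for psaC, -0.20 to 0.15 for psaI and -0.45 to 0.11 for psaJ. In photosystem II they ranged from -0.26 to 0.41 for psbA, -0.43 to 0.45 for psbD, -0.22 to 0.07 for psbF, -0.08 to 0.07 for psbH, -0.16 to 0.02 for psbJ, -0.26 to 0.19 for psbL, -0.36 to 0.54 for psbN and -0.22 to 0.09 for psbZ. In cytochrome b6f and Rubisco they ranged from -0.16 to 0.01 for petA, -0.29 to 0.08 for petB, -0.73 to 0.77 for petG, -0.46 to 0.11 for petL and -0.04 to 0.48 for rbcL. In NDH they ranged from -0.13 to 0.07 for ndhD, -0.14 to 1.03 for ndhE, -0.38 to 0.16 for ndhG, -0.26 to 0.11 for ndhI, -0.30 to 0.34 for ndhJ and -0.35 to 0.15 for ndhK. Of the nuclear genes, PSAN ranged from -0.33 to 0.03, PSBW from -0.22 to 0.20 and RCA from -0.38 to 0.07, and the root marker PYK10 from -0.33 to 0.14. Signs near 0 also turned for ndhD (0.01 with quantile normalization, 0.02 with cyclic loess), psbH (0.01 and 0.05), psaI (0.02 with cyclic loess), petG (-0.01 with a pseudocount of 16), PSBW (0.05 with quantile normalization, 0.06 with cyclic loess) and PYK10 (0.04 with quantile normalization). The causes were not tested. Dim probe sets, ndhF, petD and petG among them, are the least certain.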
